A study of Mus musculus with 52 samples.

Results

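The insulin-like growth factor (IGF) system was followed across primary mouse bone marrow cultures through 10 genes: the ligands Igf1 and Igf2, the receptors Igf1r and Igf2r, and the binding proteins Igfbp2, Igfbp3, Igfbp4, Igfbp5, Igfbp6 and Igfbp7. They were taken by name, as the probe sets annotated to one of these symbols alone, and make up 10 of the 22180 genes that the table names in that way. Each had 1 probe set, and all 10 passed the filter on low values. Total RNA of 52 cultures, 13 groups of 4, was read on arrays of the type Affymetrix Mouse Gene 2.0 ST. Cultures received Rosi (rosiglitazone, 100 nM), which activates the fat cell regulator PPARγ, LG268 (LG100268, 100 nM), which activates its dimer partner RXR, the organotin TBT (80 nM), the organophosphate TPhP, MEHP, which is formed from a phthalate plasticiser, or vehicle (DMSO, 0.1%). Each of these 6 treatments was sampled after 1 day and after 4 days, and naive cells form the remaining group. The labels used here give no dose for TPhP or MEHP. All cultures came from marrow of female C57BL/6J mice aged 8 weeks. All but the naive ones then received osteoinductive medium with insulin (0.5 µg/ml), dexamethasone (10 nM), ascorbate and β-glycerol phosphate, starting 7 days after plating. The sample labels call the naive cells undifferentiated, and the growth protocol has such cells harvested before that medium change; the treatment protocol uses naive for cells given no treatment at that change.

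IGF1 and IGF2 are secreted growth factors that signal through the tyrosine kinase receptor encoded by Igf1r, which is related to the insulin receptor. The product of Igf2r binds IGF2 and carries it to lysosomes, and it also sorts enzymes that bear mannose 6-phosphate. IGFBPs hold the ligands in the fluid around cells and are cut by proteases such as PAPP-A, and bone is a tissue in which IGFs and IGFBP5 are stored in the matrix. In fat cell precursors, IGF1 receptor signalling is part of the stimulus to differentiate.

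As a model the cultures have limits. A pool of 2 to 4 animals made up 1 experiment, each of the 4 pools (12, 15, 19 and 20 in the titles) gave 1 array to every group, and the marrow was plated without a sort that the labels mention. The label calls the cells mesenchymal stromal, and the stromal list of 6 genes (Cxcl12, Lepr, Pdgfra, Pdgfrb, Kitl and Thy1) averaged 8.53 to 9.81 on the log2 scale over the groups. The macrophage list of 6 genes averaged 9.24 in Rosi cultures at day 4 and 10.00 to 10.45 in the other 12 groups, so macrophage RNA was present throughout. In such mixed samples, fewer cells of a type and less RNA per cell cannot be told apart. Array medians lay between 3.97 and 4.15; with 4 arrays a group, precision is limited by their number. At day 4, some arrays correlated less with the others of their groups. They were Rosi pool 15 (correlations of 0.948 to 0.963 with the other Rosi arrays), vehicle pool 12 (0.944 to 0.980), TPhP pool 12 (0.962 to 0.964) and MEHP pool 12 (0.954 to 0.981). Calls that ended without one of these arrays are given below, and so are calls gained without vehicle pool 12. Leaving out MEHP pool 12 at day 4 ended 0 of the 50 calls on the 10 genes, and leaving out TPhP pool 12 ended 1, given with the comparisons to Rosi.

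Values below are log2 intensities, and a difference of 1 is a doubling; pools stand in the order 12, 15, 19 and 20. Rose and fell are used where limma's p, adjusted by Benjamini-Hochberg over the 14911 genes tested, was under 0.05; ± is limma's SE for a difference and the SD for a mean (n = 4 arrays).

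**Figure D1:**
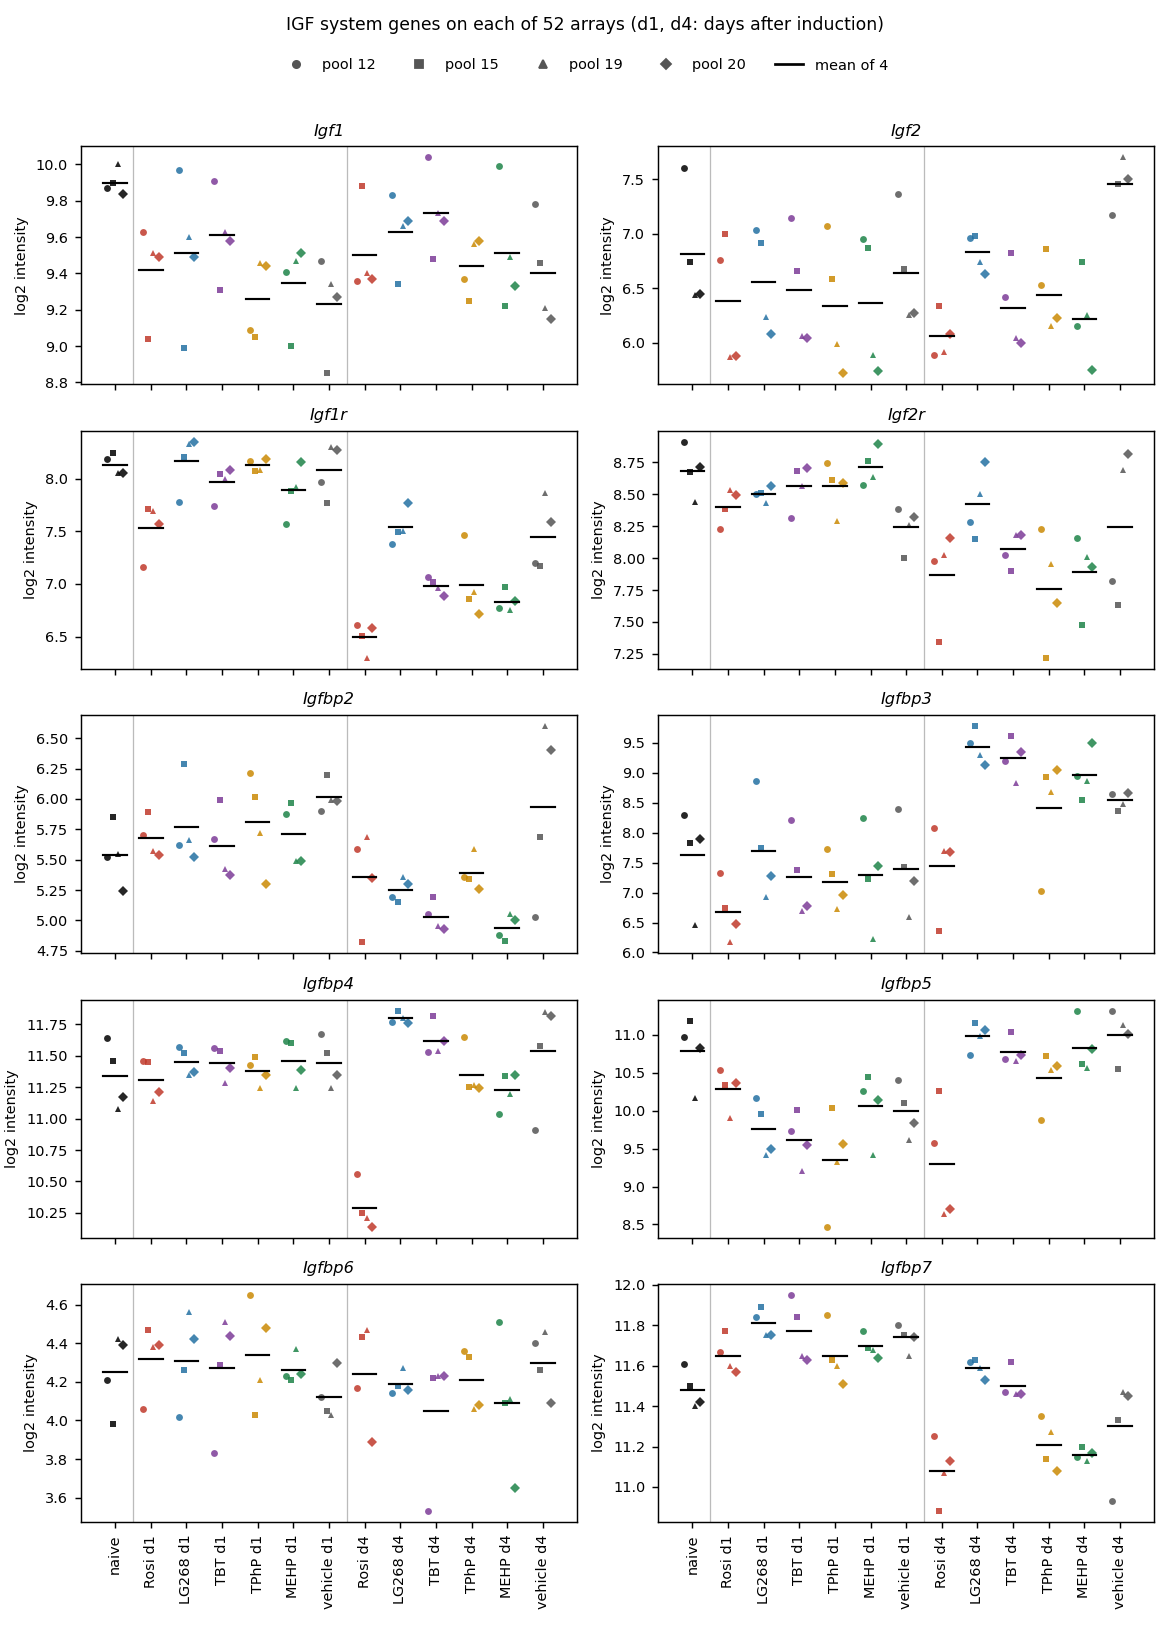
Log2 intensity of the 10 genes on each of 52 arrays (y axis, own scale per panel) in the 13 groups (x axis: naive, then the 5 chemicals and vehicle at day 1 and at day 4); symbols mark the 4 pools and bars the mean of 4. Igfbp4 sits at 10.14 to 10.56 on the Rosi arrays of day 4 and at 10.91 or more on every other array, and Igf1r is lowest in the same group.

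More of the 10 genes passed the test at day 4 than at day 1, as was so over all genes. In Rosi cultures at day 4, 7 of the 10 genes fell against vehicle (Igf2, Igf1r, Igfbp2, Igfbp3, Igfbp4, Igfbp5 and Igfbp7) and none rose; of all genes tested, 49.1% were called in that comparison and 27.7% fell. The median difference of the 10 was -0.76, against -0.05 over all genes tested. MEHP lowered 3 of 10 (Igf2, Igf1r and Igfbp2; 23.8% of all genes called, 11.7% lower) and TBT the same 3 genes (20.1% called, 9.42% lower). TPhP lowered 2 of 10, Igf2 and Igf1r (18.9% called, 7.94% lower). With LG268, Igfbp2 fell and Igfbp7 rose, 2 of 10 (6.47% called, 2.26% lower and 4.21% higher). These 5 comparisons share the vehicle arrays of day 4.

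At day 1 the count was 1 of 10 for Rosi (Igf1r, lower; 7.25% of all genes called, 3.08% lower) and 0 of 10 by limma for LG268, TBT, TPhP and MEHP, where 0.241%, 0.543%, 0.215% and 0.523% of all genes were called. At an unadjusted p under 0.05, LG268 had 0 genes, and TBT (Igf1), TPhP (Igfbp5) and MEHP (Igf2r) had 1 each. The share of all genes at that threshold was not counted. With the pool as a replicate block all 4 counts were 0, and 0.456%, 1.15%, 0.476% and 1.18% of all genes were called. In vehicle at day 1 against naive cells 3 of 10 genes were called, Igf1 and Igfbp5 lower and Igfbp7 higher (17.7% of all genes, 4.86% lower and 12.9% higher). At day 4 against naive cells 2 were called, Igf1 and Igf1r, both lower (28.9%, 11.5% lower). At day 4 against day 1, Igf1r and Igfbp7 fell and Igfbp5 rose, 3 of 10 (12.9%, 8.29% lower and 4.60% higher). With the block these counts were 3, 4 and 5, and 22.5%, 33.5% and 17.5% of all genes were called.

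**Figure D2:**
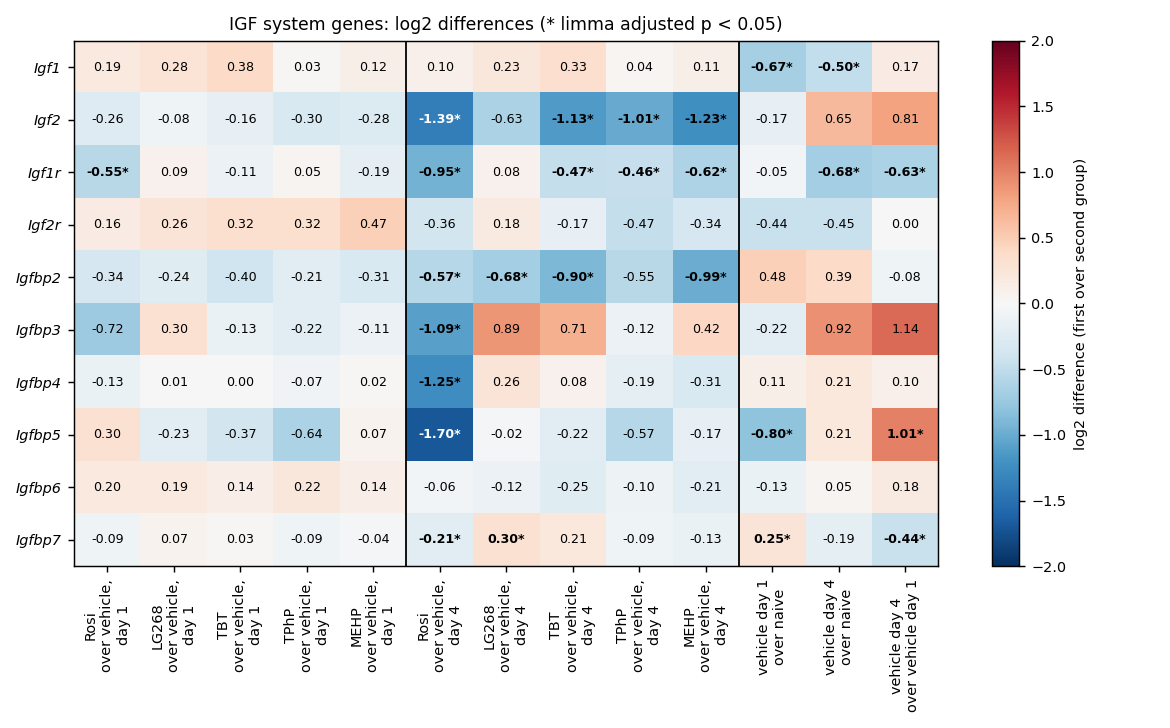
Log2 differences of the 10 genes (rows) in 13 comparisons (columns: 5 chemicals over vehicle at day 1, the same at day 4, and 3 comparisons of vehicle and naive cells); an asterisk marks a limma adjusted p under 0.05. Calls lie mostly in the day 4 block, from -1.70 for Igfbp5 with Rosi to 0.30 for Igfbp7 with LG268.

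Igf1 did not pass the test with any chemical on either day, but fell in vehicle cultures against naive cells. It stood at 9.47, 8.85, 9.34 and 9.27 in vehicle cultures at day 1, at 9.78, 9.46, 9.21 and 9.15 in vehicle cultures at day 4, and at 9.87, 9.90, 10.00 and 9.84 in naive cells. Every vehicle array lay below every naive array. The difference from naive cells was -0.67 ± 0.18 at day 1 (adjusted p = 0.00615) and -0.50 ± 0.18 at day 4 (adjusted p = 0.0285), and was negative in 4 of 4 pools each time. Without pool 19 or pool 20 both calls ended (adjusted p = 0.0848 and 0.0712 at day 1, 0.258 and 0.211 at day 4). Medium, DMSO and time in culture cannot be told apart here. Among the chemical groups at day 4, Igf1 averaged 9.50 ± 0.26 with Rosi, 9.63 ± 0.21 with LG268, 9.73 ± 0.23 with TBT, 9.44 ± 0.16 with TPhP and 9.51 ± 0.34 with MEHP, against 9.40 ± 0.29 with vehicle. All 12 pairs of neighbours in the order of the 13 groups overlapped in their arrays, from naive (9.90) down to vehicle at day 1 (9.23).

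Igf2, the ligand best known from fetal growth and from an imprinted locus, was highest in vehicle cultures at day 4 and lower in the chemical ones. It stood at 5.89, 6.34, 5.92 and 6.08 in Rosi cultures, against 7.17, 7.45, 7.70 and 7.50 in vehicle cultures. Every Rosi array lay below every vehicle array. The difference was -1.39 ± 0.31, which is 2.63-fold lower (adjusted p = 0.000224, lower in 4 of 4 pools).

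The group means of Igf2 with the other chemicals lay between those of Rosi and vehicle. MEHP cultures had 6.15, 6.74, 6.25 and 5.75, a difference of -1.23 ± 0.31 from vehicle (adjusted p = 0.00268). TBT cultures had 6.42, 6.82, 6.04 and 6.00 (-1.13 ± 0.31, adjusted p = 0.00758), and TPhP cultures had 6.53, 6.86, 6.15 and 6.23 (-1.01 ± 0.31, adjusted p = 0.0177). In these 3 groups no array reached the lowest vehicle array, 7.17. LG268 cultures had 6.96, 6.98, 6.74 and 6.63, also under every vehicle array. The difference of -0.63 ± 0.31 did not pass the test (adjusted p = 0.246, 95% interval -1.26 to 0.00). It passed with the pool as a block (adjusted p = 0.0452) and with only the arrays compared (adjusted p = 0.0447). The Rosi call held in each leave-out. The TBT and TPhP calls ended without pool 19 (adjusted p = 0.107 and 0.216) or pool 20 (0.0691 and 0.109), and the MEHP call without pool 20 (0.0528). The leave-out fits did not have the pool as a block, so differences between pools stayed in their error.

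The pools set Igf2 apart as well. Over the 13 groups, arrays of pools 12 and 15 averaged 0.32 and 0.29 above their group means, and those of pools 19 and 20 averaged 0.26 and 0.35 below. In vehicle cultures at day 1 Igf2 stood at 7.36, 6.68, 6.25 and 6.27, and in naive cells at 7.60, 6.74, 6.44 and 6.45. Vehicle at day 4 differed from vehicle at day 1 by 0.81 ± 0.31, with the same sign in 3 of 4 pools (adjusted p = 0.0796, and 0.00498 with the block) and from naive cells by 0.65 ± 0.31 (adjusted p = 0.118, and 0.0143 with the block). Beside the lower Igf2 of day 4, the osteoblast list of 7 genes averaged 6.94 with Rosi, 7.13 with MEHP, 7.41 with TBT, 7.90 with TPhP and 8.00 with LG268, against 8.75 with vehicle; its part in the result was not tested.

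Igf1r was the member called most often, in 7 of 13 comparisons with vehicle or naive cells, 5 of them chemicals against vehicle. With Rosi at day 4, Igf2, Igf1r, Igfbp4 and Igfbp5 fell under every alternative tried. Because Rosi acts through a receptor that binds DNA, the 250 bases before the transcription start are shown for 3 of these genes; Igf2, which has 4 windows in the table, is given by its matches alone. The sequences are RefSeq's for GRCm38.p6, on the strand of the gene, with matches to 3 short motifs in capitals. The motifs were AGGTCA, the half-site of nuclear receptors such as PPARγ and RXR, TGTTCT, a glucocorticoid receptor half-site, and TATAAA, the TATA box, each on both strands. Igf1r lies at chr7:67952007-67952256 on the plus strand, Igfbp4 at chr11:99040994-99041243 on the plus strand and Igfbp5 at chr1:72874866-72875115 on the minus strand.
Igf1r: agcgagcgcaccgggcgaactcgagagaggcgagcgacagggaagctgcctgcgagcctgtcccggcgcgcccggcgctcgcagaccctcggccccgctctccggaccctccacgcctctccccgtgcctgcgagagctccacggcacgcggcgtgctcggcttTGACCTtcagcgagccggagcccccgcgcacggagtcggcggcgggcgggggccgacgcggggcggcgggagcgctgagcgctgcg
Igfbp4: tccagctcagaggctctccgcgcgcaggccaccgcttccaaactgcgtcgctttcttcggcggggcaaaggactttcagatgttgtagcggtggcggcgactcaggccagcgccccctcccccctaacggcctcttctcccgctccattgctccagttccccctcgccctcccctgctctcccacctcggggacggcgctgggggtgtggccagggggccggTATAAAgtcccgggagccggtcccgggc
Igfbp5: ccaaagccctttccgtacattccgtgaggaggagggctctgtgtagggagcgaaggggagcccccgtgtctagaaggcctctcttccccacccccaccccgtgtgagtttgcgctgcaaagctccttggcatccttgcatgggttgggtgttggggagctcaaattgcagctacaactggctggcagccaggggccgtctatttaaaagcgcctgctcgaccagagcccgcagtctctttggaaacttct
The Igf1r window is 77.6% G and C, against a median of 52.4% over the 32851 windows of the table, and holds AGGTCA on the reverse strand at position -86 from the start. The Igfbp4 window (69.2% G and C) holds TATAAA at position -28. The Igfbp5 window (58.8% G and C) holds none of the 3 motifs. AGGTCA was found in 4 of the 14 windows of the 10 genes (Igf1, Igf1r, Igf2 and Igf2r), and in 14.0% of all windows. TGTTCT was found in 2 (Igf2, in the window that also holds AGGTCA, and Igfbp2; 16.1% of all windows) and TATAAA in 2 (Igfbp4 and Igfbp6; 12.4%). These matches describe the letters only.

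Igf1r fell with Rosi from the first day. At day 1 it stood at 7.16, 7.71, 7.69 and 7.57 in Rosi cultures, against 7.97, 7.77, 8.30 and 8.27 in vehicle cultures. Every Rosi array lay below every vehicle array, and the difference was -0.55 ± 0.15 (adjusted p = 0.0119, lower in 4 of 4 pools). At day 4 it stood at 6.61, 6.51, 6.30 and 6.58 in Rosi cultures, against 7.20, 7.17, 7.86 and 7.59 in vehicle cultures. The groups were again apart, by -0.95 ± 0.15, which is 1.94-fold (adjusted p = 4.95e-07), and the change between the days was -0.41 ± 0.21 (adjusted p = 0.137). The day 1 call ended without pool 19 (-0.53, adjusted p = 0.103) or pool 20 (-0.49, adjusted p = 0.165), and with only the arrays compared (adjusted p = 0.0569); the day 4 call held in each alternative.

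At day 4 Igf1r also fell with MEHP, TBT and TPhP. MEHP cultures had 6.77, 6.97, 6.75 and 6.84 (-0.62 ± 0.15, adjusted p = 0.00117), and TBT cultures had 7.07, 7.02, 6.96 and 6.89 (-0.47 ± 0.15, adjusted p = 0.0178). No MEHP or TBT array reached the lowest vehicle array. TPhP cultures had 7.46, 6.86, 6.92 and 6.72 (-0.46 ± 0.15, adjusted p = 0.0197), lower in 3 of 4 pools, with pool 12 above its vehicle array. The TPhP difference was -0.62 without that TPhP array (adjusted p = 0.00133) and -0.70 without pool 12 in all groups (adjusted p = 0.000132). LG268 cultures had 7.38, 7.49, 7.50 and 7.77, among the vehicle arrays, with a difference of 0.08 (95% interval -0.21 to 0.38). The MEHP call ended without pool 19 (-0.46, adjusted p = 0.0954), and the TBT and TPhP calls without pool 19 (-0.33 and -0.30, adjusted p = 0.251 and 0.365) or pool 20 (-0.39 and -0.33, adjusted p = 0.164 and 0.283). With only the arrays compared all 3 ended (MEHP 0.054, TBT 0.0843 and TPhP 0.24).

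Igf1r fell with time in vehicle too. It averaged 7.45 ± 0.33 at day 4, against 8.08 ± 0.25 at day 1 (-0.63 ± 0.15, adjusted p = 0.00308), and against 8.13 ± 0.10 in naive cells (-0.68 ± 0.15, adjusted p = 0.000415), lower in 4 of 4 pools each time. The day 4 and day 1 arrays overlapped, those of day 4 and naive cells did not, and with only the arrays compared the call against day 1 ended (adjusted p = 0.0877). Beside the falls of day 4, 3 of the 4 genes of the smooth muscle list (Acta2, Tagln, Cnn1 and Myh11) fell with Rosi, TBT, TPhP and MEHP, and 0 with LG268. Of all genes tested, 27.7%, 9.42%, 7.94%, 11.7% and 2.26% fell with these chemicals, in that order. In vehicle at day 4 against day 1, 4 of 4 fell (8.29% of all genes). The smooth muscle list averaged 7.66 with Rosi, 7.80 with TBT, 7.62 with TPhP, 7.58 with MEHP and 8.36 with LG268 at day 4, against 8.50 with vehicle. The adipocyte list of 6 genes averaged 10.15 with Rosi, 9.84 with TPhP, 9.81 with MEHP, 9.30 with TBT and 8.18 with LG268, against 6.79 with vehicle. The part of these lists in the Igf1r result was not tested.

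Igf2r, the mannose 6-phosphate and IGF2 receptor, passed the test in none of the 13 comparisons with vehicle or naive cells. At day 4 it stood at 7.98, 7.34, 8.02 and 8.16 in Rosi cultures and at 8.23, 7.22, 7.95 and 7.65 in TPhP cultures, against 7.82, 7.63, 8.69 and 8.81 in vehicle cultures. The vehicle arrays split, pools 12 and 15 below and pools 19 and 20 above, and overlapped with both chemical groups. The difference was -0.36 for Rosi (95% interval -0.75 to 0.03) and -0.47 for TPhP (adjusted p = 0.0815, and 0.0415 with the pool as a block). Without TPhP pool 12 the TPhP difference was -0.63 and passed (adjusted p = 0.0192). Without vehicle pool 12 both passed, Rosi at -0.50 (adjusted p = 0.0376) and TPhP at -0.61 (adjusted p = 0.027). Vehicle at day 4 differed from naive cells by -0.45 (adjusted p = 0.0768, and 0.0411 with the block). Vehicle at day 1 passed as lower than naive cells with only the arrays compared (-0.44, adjusted p = 0.0375).

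Igfbp4, which binds IGFs and is the main substrate of the protease PAPP-A, fell with Rosi at day 4. With all arrays it passed the test for no other chemical. It stood at 10.56, 10.25, 10.21 and 10.14 in Rosi cultures, against 10.91, 11.58, 11.85 and 11.82 in vehicle cultures. The Rosi arrays were the 4 lowest of all 52, and the vehicle array nearest to them was pool 12. The difference was -1.25 ± 0.14, which is 2.38-fold (adjusted p = 3.87e-10, lower in 4 of 4 pools). With the other chemicals Igfbp4 averaged 11.80 ± 0.04 (LG268), 11.62 ± 0.13 (TBT), 11.35 ± 0.20 (TPhP) and 11.23 ± 0.15 (MEHP), against 11.54 ± 0.44 with vehicle. The lowest of these differences was that of MEHP, -0.31 (adjusted p = 0.105). Without vehicle pool 12, MEHP (-0.52, adjusted p = 0.00139) and TPhP (-0.40, adjusted p = 0.018) passed as lower. They also passed without pool 12 in all groups (-0.45 and -0.50, adjusted p = 0.00187 and 0.000825). Vehicle at day 4 passed as higher than naive cells without vehicle pool 12 (0.42, adjusted p = 0.00935). At day 1 the Rosi difference was -0.13, and the test of the difference between days called Igfbp4 (-1.12 ± 0.20, adjusted p = 2.18e-05; 3 of 10 genes were called, all lower, and 30.0% of all genes, 15.6% lower).

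Igfbp5, an IGFBP that osteoblasts make and that binds to bone matrix, also fell with Rosi at day 4. It stood at 9.58, 10.26, 8.64 and 8.71 in Rosi cultures, against 11.32, 10.55, 11.13 and 11.01 in vehicle cultures. The groups did not overlap, though the pool 15 arrays of both were close to each other. The difference was -1.70 ± 0.29, which is 3.25-fold (adjusted p = 2.97e-06, lower in 4 of 4 pools). At day 1 the Rosi difference was 0.30, and between the days the effect changed by -2.00 ± 0.41 (adjusted p = 0.000173). With LG268, TBT, TPhP and MEHP the day 4 differences were -0.02, -0.22, -0.57 and -0.17, and none passed the test; the 95% interval was -0.60 to 0.56 for LG268 and -1.15 to 0.01 for TPhP. Without Rosi pool 15, and without vehicle pool 12, Igfbp4 and Igfbp5 kept their calls with Rosi.

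In vehicle cultures Igfbp5 fell on the first day and rose after it. It averaged 9.99 ± 0.34 at day 1, against 10.79 ± 0.43 in naive cells (-0.80 ± 0.29, adjusted p = 0.0462). It averaged 11.00 ± 0.33 at day 4, against 9.99 ± 0.34 at day 1 (1.01 ± 0.29, adjusted p = 0.0144). Both differences had the same sign in 4 of 4 pools. The first call ended without the filter (adjusted p = 0.0631) and without pool 15, 19 or 20 (0.11, 0.0939 and 0.277), and the second without pool 19 or 20 (0.118 and 0.131) or without vehicle pool 12 alone (0.90, adjusted p = 0.0575).

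Beside the falls with Rosi at day 4, some lists of other cell types were lower too, and others were not. Of all genes tested, 27.7% fell and 21.3% rose in that comparison. In the macrophage list 6 of 6 genes fell (8.84 to 10.12 over the Rosi arrays, against 10.28 to 10.62 over the vehicle arrays), in the stromal list 4 of 6 (8.24 to 8.84, against 9.05 to 9.46) and in the osteoblast list 5 of 7 (6.47 to 7.47, against 7.84 to 9.24). In the adipocyte list 6 of 6 rose (9.81 to 10.34, against 5.59 to 7.54). In the osteoclast list 3 of 5 fell, in the smooth muscle list 3 of 4 and in the T and NK cell list 1 of 4. In the endothelial list 1 of 5 rose and 0 fell, and in the neutrophil and B cell lists 0 genes were called. The part of these lists in the falls of Igfbp4 and Igfbp5 was not tested.

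Igfbp3, the most abundant IGF carrier of plasma, had the widest span of group means, from 9.43 with LG268 at day 4 down to 6.68 with Rosi at day 1, and a wide spread between pools (SD 0.14 to 0.95 over the 13 groups). At day 4 it stood at 8.08, 6.36, 7.69 and 7.67 in Rosi cultures, against 8.64, 8.37, 8.48 and 8.67 in vehicle cultures. The groups did not overlap, and pool 15 was the lowest Rosi array by over 1. The difference of -1.09 ± 0.44 (adjusted p = 0.0347) became -0.73 without Rosi pool 15 (adjusted p = 0.18), -1.06 without vehicle pool 12 (adjusted p = 0.0648), and lost its call without pool 15 or pool 20 in all groups (adjusted p = 0.254 and 0.121). LG268 cultures had 9.49, 9.78, 9.30 and 9.13, above every vehicle array, with a difference of 0.89 ± 0.44 that did not pass the test (adjusted p = 0.238). TBT and MEHP differed by 0.71 and 0.42, and did not pass either. With only the arrays compared, LG268 and TBT passed as higher (adjusted p = 0.0162 and 0.0281). TPhP cultures had 7.02, 8.93, 8.68 and 9.05, with pool 12 far below the other 3, which were above their vehicle arrays. The TPhP difference was -0.12, and 0.35 without TPhP pool 12 (adjusted p = 0.896 and 0.647). In vehicle, day 4 differed from day 1 by 1.14 ± 0.44 (adjusted p = 0.077, and 0.0328 with the pool as a block).

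Igfbp2, which fat cell precursors are known to secrete, fell with 4 of the 5 chemicals at day 4. It stood at 4.88, 4.83, 5.05 and 5.00 with MEHP, at 5.05, 5.19, 4.95 and 4.93 with TBT, at 5.19, 5.15, 5.36 and 5.30 with LG268 and at 5.59, 4.82, 5.69 and 5.35 with Rosi, against 5.03, 5.69, 6.60 and 6.40 with vehicle. Vehicle pool 12 lay among the chemical arrays and pools 19 and 20 above all of them. The differences were -0.99 ± 0.21 for MEHP (adjusted p = 0.000402), -0.90 ± 0.21 for TBT (0.00184), -0.68 ± 0.21 for LG268 (0.044) and -0.57 ± 0.21 for Rosi (0.0233). TPhP differed by -0.55 ± 0.21 without passing (adjusted p = 0.0658). The TPhP difference passed without vehicle pool 12 (-0.85, adjusted p = 0.00132) and without pool 12 in all groups (-0.84, adjusted p = 0.00748). MEHP was lower in 4 of 4 pools and the other 4 chemicals in 3 of 4. Without Rosi pool 15 the Rosi difference was -0.39 (adjusted p = 0.139), and without vehicle pool 12 it was -0.87 (adjusted p = 0.000284). The LG268 and Rosi calls ended without pool 15 (adjusted p = 0.0884 and 0.0965), 19 (0.318 and 0.161) or 20 (0.3 and 0.208), and the TBT call without pool 19 or 20 (0.101 and 0.0721). With only the arrays compared none of the 4 passed (adjusted p = 0.089 to 0.282). Vehicle at day 4 passed as higher than naive cells without vehicle pool 12 (0.69, adjusted p = 0.00661). Vehicle at day 1 passed as higher than naive cells with only the arrays compared (0.48, adjusted p = 0.0355).

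Igfbp7, a related protein that binds IGFs weakly, moved little, and in both directions. At day 4 it stood at 11.25, 10.88, 11.07 and 11.13 with Rosi and at 11.62, 11.63, 11.59 and 11.53 with LG268, against 10.93, 11.33, 11.47 and 11.45 with vehicle. The LG268 arrays all lay above the vehicle ones, whereas Rosi overlapped with vehicle. It fell with Rosi (-0.21 ± 0.09, adjusted p = 0.0396) and rose with LG268 (0.30 ± 0.09, adjusted p = 0.0287). The Rosi call ended without Rosi pool 15 (-0.15, adjusted p = 0.182), without pool 15, 19 or 20 (-0.13, -0.15 and -0.18, adjusted p = 0.325, 0.308 and 0.209) and with cyclic loess between arrays (-0.07, adjusted p = 0.531), and was -0.33 without vehicle pool 12. The LG268 call ended without vehicle pool 12 (0.18, adjusted p = 0.236) and without each pool in turn (adjusted p = 0.21, 0.151, 0.0721 and 0.0651). The Rosi and LG268 calls also ended with only the arrays compared (adjusted p = 0.287 and 0.24), and the Rosi call without the filter (0.0613). MEHP passed as lower without vehicle pool 12 (-0.26, adjusted p = 0.0169). In vehicle, Igfbp7 rose at day 1 over naive cells (0.25 ± 0.09, adjusted p = 0.0373) and fell at day 4 against day 1 (-0.44 ± 0.09, adjusted p = 0.000579). The day 1 call ended with cyclic loess (0.18, adjusted p = 0.175) and without pool 15, 19 or 20 (adjusted p = 0.12, 0.177 and 0.221), and without the filter (0.0578). With only the arrays compared both of these vehicle calls ended (adjusted p = 0.0661 at day 1 and 0.0775 at day 4).

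Igfbp6, the IGFBP with a preference for IGF2, lay near the floor. Its array values ran from 3.53 to 4.65, 44 of 52 were above the table's median of 4.05, and it passed the test in none of the 13 comparisons.

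**Figure D3:**
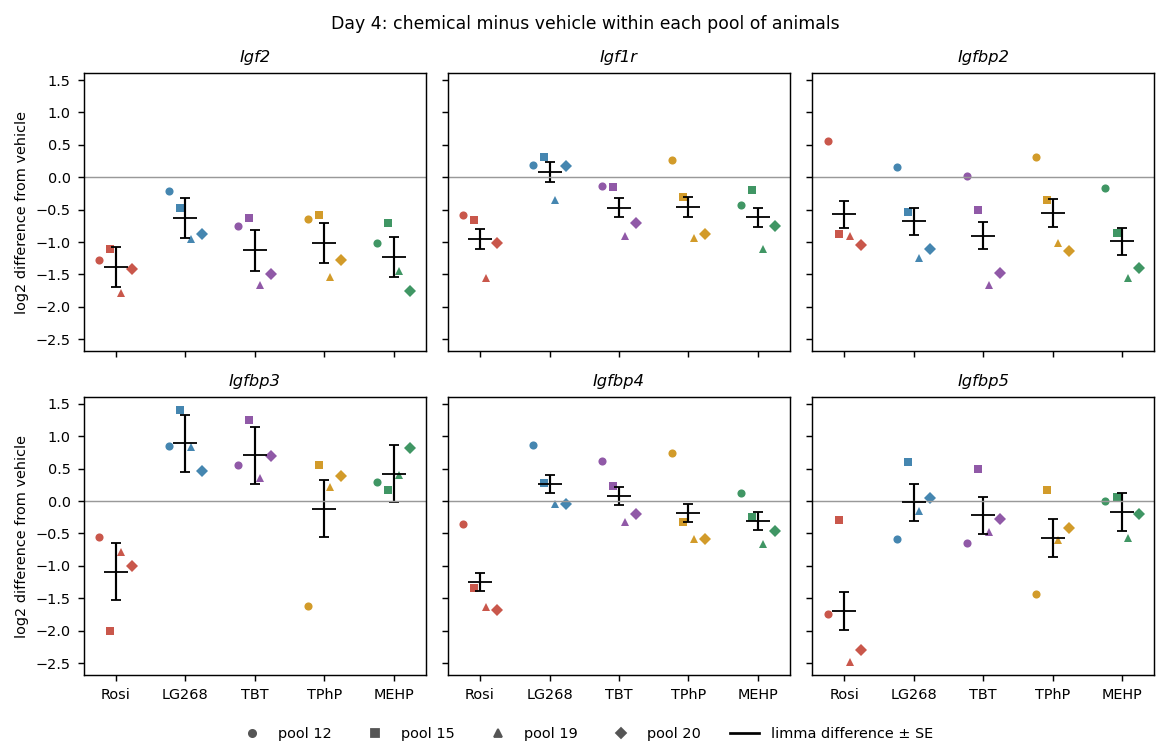
Log2 difference from vehicle at day 4 within each pool (symbols) for 6 genes, by chemical (x axis), with limma's difference ± SE (black). All 4 Rosi symbols lie below 0 for Igf2, Igf1r, Igfbp3, Igfbp4 and Igfbp5. With the other chemicals, limma's differences ran from -0.31 to 0.26 for Igfbp4 and from -0.57 to -0.02 for Igfbp5. For Igfbp4 the TPhP and MEHP symbols lie below 0 in pools 15, 19 and 20 and above it in pool 12.

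Setting chemicals against Rosi at day 4 gave direct tests of these contrasts, over 10 comparisons between chemicals on the 2 days; the dose was the same for LG268 and Rosi (100 nM), was 80 nM for TBT, and for TPhP and MEHP is not in the labels. The 4 comparisons with Rosi share its arrays. Igfbp4 was higher than with Rosi for all 4 (LG268 1.51 ± 0.14, TBT 1.34 ± 0.14, TPhP 1.06 ± 0.14 and MEHP 0.95 ± 0.14), with adjusted p from 4.19e-12 to 4.01e-06. Igfbp5 was higher for all 4 (1.68, 1.48, 1.13 and 1.53, each ± 0.29), with adjusted p from 3.78e-06 to 0.00248; without pool 20 TPhP lost this call (0.88, adjusted p = 0.115), and with only the arrays compared MEHP and TPhP did (0.0623 and 0.0937). With LG268, 7 of 10 genes were higher than with Rosi (47.8% of all genes called, 26.3% higher), also Igfbp3 (1.98 ± 0.44, adjusted p = 0.000192), Igf1r (1.04 ± 0.15, adjusted p = 9.4e-08), Igf2 (0.77 ± 0.31, adjusted p = 0.0397), Igf2r (0.55 ± 0.19, adjusted p = 0.017) and Igfbp7 (0.51 ± 0.09, adjusted p = 3.89e-06). The LG268 call on Igf2 ended without any 1 of the pools (adjusted p = 0.0821, 0.0745, 0.125 and 0.0612), and that on Igf2r without pool 19 or 20 (0.0631 and 0.0701) or Rosi pool 15 (0.37, adjusted p = 0.118).

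TBT was higher than Rosi in 5 of 10 genes (38.1% of all genes called, 20.1% higher), the further 3 being Igfbp3 (1.80 ± 0.44), Igf1r (0.48 ± 0.15) and Igfbp7 (0.42 ± 0.09). TPhP was higher in 3 (28.2% called, 15.1% higher), with Igf1r at 0.49 ± 0.15, and MEHP in 3 (26.1% called, 12.8% higher), with Igfbp3 at 1.51 ± 0.44. Adjusted p for these 5 ran from 0.00015 to 0.0092. TBT lost Igf1r without pool 19 (adjusted p = 0.0693) and Igfbp3 without pool 15 (0.0607), TPhP lost Igf1r without pool 19 (0.0691) or TPhP pool 12 alone (0.34, adjusted p = 0.0961), and MEHP lost Igfbp3 without pool 15 or 20 (0.0906 and 0.0959). With only the arrays compared TPhP lost Igf1r (0.102) and MEHP lost Igfbp3 (0.0637). TPhP against Rosi gained Igfbp3 with the pool as a block (0.97, adjusted p = 0.0472) and without TPhP pool 12 (1.44, adjusted p = 0.0141). For Igf2 the 95% interval of the difference from Rosi was -0.37 to 0.89 with TBT, -0.25 to 1.02 with TPhP and -0.47 to 0.79 with MEHP. TBT against LG268 at day 4 called 1 of 10 genes, Igf1r (-0.55 ± 0.15, adjusted p = 0.0237; 3.35% of all genes, 0.798% lower), a call that ended without pool 15, 19 or 20 (0.0983, 0.218 and 0.471).

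At day 1 Igf1r was higher with LG268 than with Rosi (0.63 ± 0.15, adjusted p = 0.00327; 1 of 10 genes, 6.99% of all genes called, 3.38% higher) and higher with TPhP than with Rosi (0.59 ± 0.15, adjusted p = 0.0164; 1 of 10, 2.32% called, 0.597% higher). With the pool as a block Igfbp5 was also lower with TPhP than with Rosi (-0.93, adjusted p = 0.0262, against 0.0765 without it; 3.45% of all genes called). It stood at 8.47, 10.04, 9.33 and 9.56 with TPhP, against 10.54, 10.34, 9.90 and 10.37 with Rosi. TPhP pool 12 was the lowest of these arrays, and its correlations with the other TPhP arrays were 0.974 to 0.983. No fit left that array out alone. The first Igf1r call ended without pool 20 (adjusted p = 0.0799) and the second without each pool in turn (0.0891, 0.051, 0.0667 and 0.174). TBT and MEHP against Rosi (2.61% and 1.88% of all genes called) and TBT against LG268 (0%) called 0 of 10 genes by limma at day 1, with 2, 1 and 0 genes at an unadjusted p under 0.05 and 0 with the block. With the block, 4.11%, 3.21% and 0.00671% of all genes were called. The effect of a chemical differed between days for 3 genes, all with Rosi: Igfbp4 and Igfbp5 as above, and Igf2 (-1.13 ± 0.44, adjusted p = 0.0472), which ended without pool 15, 19 or 20 (0.147, 0.192 and 0.11). LG268, TBT, TPhP and MEHP had 0 such calls (0.0805%, 1.77%, 4.49% and 6.36% of all genes), with 0, 1, 2 and 4 genes at an unadjusted p under 0.05. Those last counts have no share of all genes beside them, as it was not counted. With the pool as a block the count was 7: TBT gained Igf2 (-0.97, adjusted p = 0.0496), TPhP gained Igf2r (-0.79, 0.039), and MEHP gained Igf2 (-0.95, 0.0324) and Igf2r (-0.81, 0.0263). Of all genes, the block fit called 34.5% for Rosi, 0.215% for LG268, 4.16% for TBT, 7.12% for TPhP and 9.5% for MEHP. Without TPhP day 4 pool 12 the count was 6, with TPhP gaining Igf1r (-0.67, adjusted p = 0.0273) and Igf2r (-0.95, 0.0219) and MEHP gaining Igf2r (-0.81, 0.0496). Without MEHP day 4 pool 12, MEHP gained Igf2r (-0.90, 0.0343). Without vehicle day 4 pool 12 the count was 7. MEHP then gained Igfbp2 (-0.98, adjusted p = 0.0151), Igfbp4 (-0.53, 0.0378) and Igf2r (-0.95, 0.022), and TPhP gained Igf2r (-0.93, 0.0333).

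Genes that act with the members were taken from 5 lists, of which 47 of 53 genes were tested. Of 17 genes of the receptor and its signalling, 7 rose and 8 fell with Rosi at day 4, against 21.3% and 27.7% of all genes tested. Those with the smallest adjusted p rose: Irs2 (1.59 ± 0.15), an adaptor of the insulin and IGF1 receptors, Sh2b2 (2.54 ± 0.26), an adaptor of the insulin receptor, and Foxo1 (1.66 ± 0.18), a transcription factor that insulin and IGF signals keep out of the nucleus. Insr, the insulin receptor, rose by 1.58 ± 0.18 with Rosi, 1.30 ± 0.18 with MEHP, 1.13 ± 0.18 with TBT, 1.11 ± 0.18 with TPhP and 0.69 ± 0.18 with LG268 at day 4, and by 0.91 ± 0.18 with Rosi at day 1. So with Rosi, TBT, TPhP and MEHP at day 4 Igf1r was lower than in vehicle while Insr was higher. In that list TBT raised 7 and lowered 2 (10.6% and 9.42% of all genes), TPhP raised 7 and lowered 2 (11.0% and 7.94%), MEHP raised 7 and lowered 3 (12.1% and 11.7%), and LG268 raised 4 and lowered 0 (4.21% and 2.26%).

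Among 10 carriers, proteases and inhibitors, Rosi at day 4 raised 2 and lowered 4, against 21.3% and 27.7% of all genes tested. Htra3 (1.19 ± 0.12), a secreted protease, and Adam12 (2.27 ± 0.31), a protease known to cut IGFBP3 and IGFBP5, rose, while Pappa (-1.90 ± 0.26), the IGFBP4 protease, fell. Pappa also fell with MEHP (-1.25 ± 0.26), TBT (-1.01 ± 0.26) and TPhP (-0.93 ± 0.26) at day 4, and with Rosi at day 1 (-1.02 ± 0.26), where Htra3 rose (0.88 ± 0.12). Htra3 rose as well with TBT (0.72 ± 0.12) and MEHP (0.51 ± 0.12) at day 1, on a day when no member passed the test with either. In the 6 genes of the growth hormone axis, Ghr, the growth hormone receptor, rose with every chemical at day 4: Rosi 1.82, TPhP 1.65, MEHP 1.53, TBT 1.48 and LG268 0.98, each ± 0.22. Stat5b, which carries growth hormone signals to Igf1 in liver, fell with Rosi (-0.40 ± 0.08), while Stat5a averaged 7.66 with Rosi, against 7.20 with vehicle. The list of 6 counted 2 higher and 4 lower with Rosi (21.3% and 27.7% of all genes).

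Of 7 genes of mannose 6-phosphate sorting, Rosi at day 4 raised 1 and lowered 5 (21.3% and 27.7% of all genes). The gene that rose was Gnptab (0.75 ± 0.11), a subunit of the enzyme that starts the tag. Among those that fell were Gga2 (-0.72 ± 0.10), an adaptor that carries the receptors, and M6pr (-0.57 ± 0.10), the smaller mannose 6-phosphate receptor. Gga2 fell with LG268, TBT, TPhP and MEHP too (-0.41, -0.48, -0.37 and -0.48, each ± 0.10). Of 7 tested imprinted genes and mRNA-binding partners, 1 rose and 0 fell with Rosi (again against 21.3% and 27.7% of all genes). It was Cdkn1c (1.57 ± 0.22), a cell cycle inhibitor from the imprinted region that also holds Igf2. Cdkn1c rose with the other 4 chemicals at day 4 (LG268 0.85, TBT 0.92, TPhP 0.62 and MEHP 0.62).

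**Figure D4:**
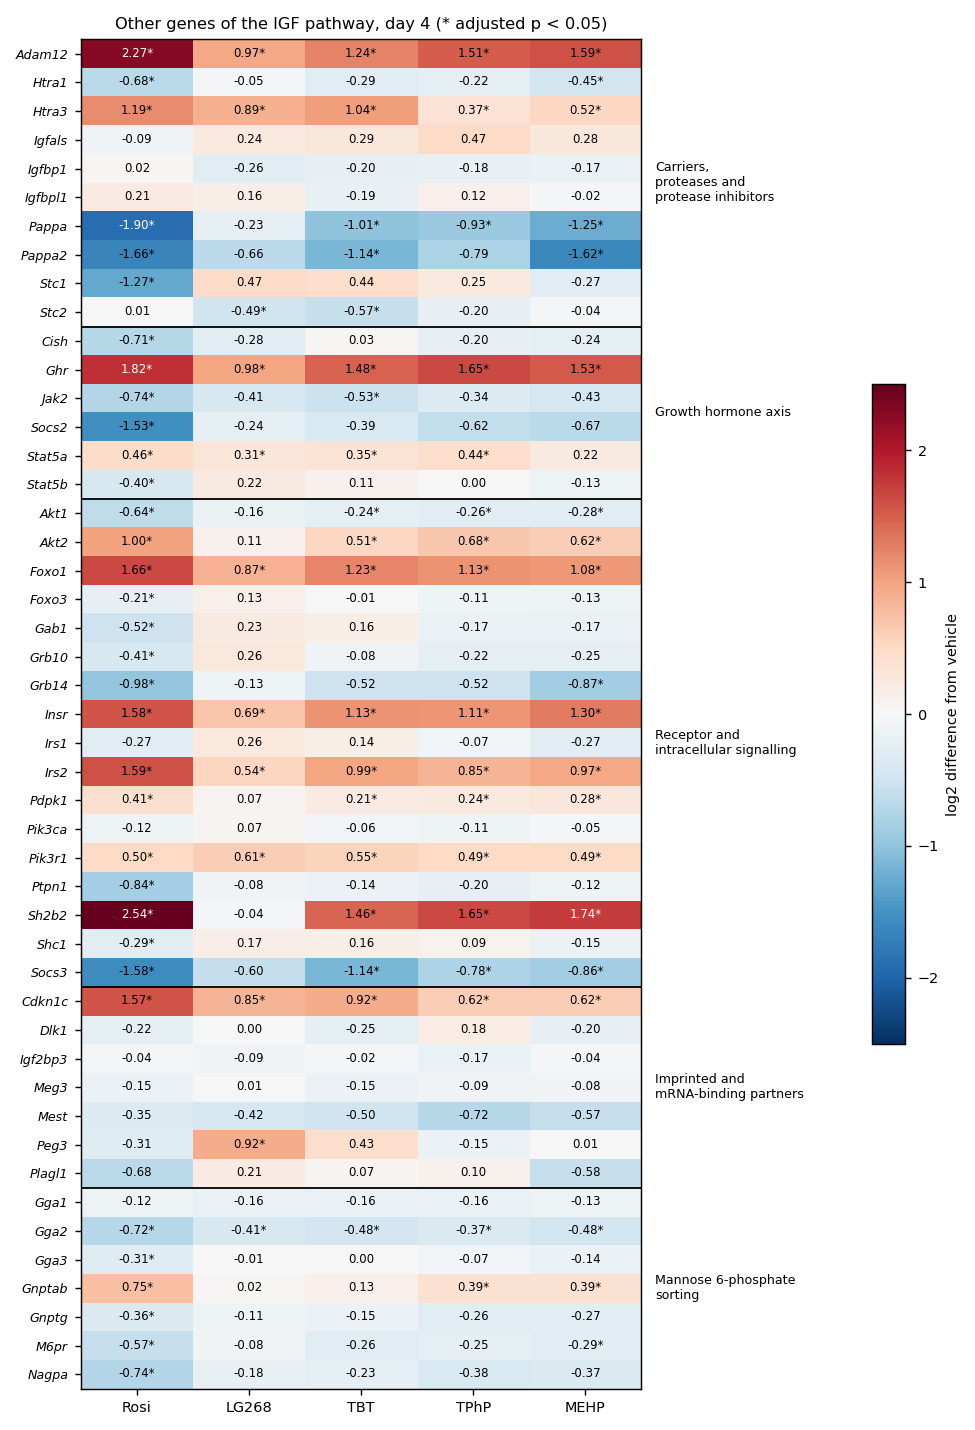
Log2 differences from vehicle at day 4 (5 chemicals, columns) for the 47 tested genes of 5 lists (rows, list names at the right); an asterisk marks a limma adjusted p under 0.05. Ghr, Insr, Irs2, Foxo1, Pik3r1, Htra3, Adam12 and Cdkn1c rose and Gga2 fell in all 5 columns, and the Rosi column holds more asterisks than any other.

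Over the 52 arrays, the tested genes with a regular symbol whose values ran most like those of the members are given as a description. Arrays share pools, treatments and cell mixture, so the correlations are not independent. For Igf1r they were Phldb2, Enah and Thbs1 (Pearson r = 0.96 each, 0.99 over 13 group means), for Igfbp4 Plxdc2 (0.96), Mxra8 and Ston1 (0.92 each), and for Igfbp7 Plekhg2, Map4k5 and Armcx2 (0.91 each). For Igfbp5 they were Cdk19 (0.87), Myl12b (0.85) and P2rx7 (0.84), and for Igfbp3 Wdr86 (0.86), Itga2 (0.85) and Abca8a (0.84). Igf2 ran with Susd2 (0.80), Aldh1a2 (0.79) and Fap (0.77), Igfbp2 with Fto and Npnt (0.80 each) and Mfap5 (0.79), and Igf1 with Clec7a (0.74), Lncpint and Ksr2 (0.71 each). Among the members themselves the highest were Igf1r with Igfbp7 (0.76) and Igf1r with Igf2r (0.75), and the lowest Igf1 with Igfbp2 (-0.57).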

How the data were processed

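Affymetrix Mouse Gene 2.0 ST arrays measured RNA of 52 cultures. Log2 values of 41345 probe sets were deposited; the submitters' processing notes name R 3.3.1 and oligo, and how background was corrected and arrays normalized is not given in the sources used here. Of the probe sets, 23521 carried 1 gene, and the one with the highest mean stood for a gene (22180 genes). Genes above the table median of 4.05 on at least 4 arrays were tested (14911). limma 3.58.1 (R 4.3.3; group means over all 52 arrays, 39 residual degrees of freedom, two-sided, Benjamini-Hochberg adjustment, threshold 0.05) made 28 comparisons, and was checked on simulated data; replicates are pools of animals, and 95% intervals use limma's SE. Members and lists were chosen with earlier results of these data known. Of list genes, up to 3 per comparison were named, by smallest adjusted p. For a called member the 3 most correlated genes were named, out of the tested genes with a regular symbol. Names of clones, predicted genes and accessions were left out of that ranking. Values of a named gene in further comparisons, and those of Stat5a, were added after they were seen. The labels make a pool 1 experiment, so a fit with the pool as block (36 degrees of freedom) stands beside a result only where it changes a call or a count; for 43 of 52 arrays the deviations ran most like those of the same pool (median correlation 0.219, against -0.087 with others). Promoter letters are RefSeq's (GRCm38.p6; 10 of 10 genes matched, 14 windows); motifs were searched as plain letters with Python 3.11.15 and pandas 2.3.3. No protein sequences were used here, and figures were drawn with matplotlib 3.10.9.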

Additional observations from a re-analysis of the deposited data

Results flagged for a closer look

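In 5 sets of 4 arrays, 1 array lay far from the other 3. Igf1 stood at 9.88 in Rosi pool 15 at day 4, against 9.36 to 9.40 in the other 3. Igfbp4 stood at 11.65 in TPhP pool 12 at day 4 (the others 11.24 to 11.27), and Igfbp7 at 11.62 in TBT pool 15 at day 4 (11.46 to 11.47). Igfbp6 stood at 4.37 in MEHP pool 19 at day 1 (4.21 to 4.24) and at 3.53 in TBT pool 12 at day 4 (4.22 to 4.23). In all, 130 sets of 4 arrays were looked at, and chance sets apart about 1 in 20. With Rosi, the difference from vehicle changed between day 1 and day 4 for Igf2 (-1.13), Igfbp4 (-1.12) and Igfbp5 (-2.00), as limma's test of the difference gave it.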

How the results depend on the processing

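Of the 50 results of single genes that passed the test, 17 passed under every alternative tried, among them the falls of Igf2, Igf1r, Igfbp4 and Igfbp5 with Rosi at day 4, and none changed sign. Calls against same-day vehicle numbered 18, over time in vehicle 8, for the change of effect between days 3 and between chemicals 21. With only the arrays compared, the first count was 11; leaving out 1 pool at a time gave 6 to 24, 3 to 15, 2 to 11 and 14 to 21. The count of changes between days was 7 with the pool as replicate block, 6 with the block and cyclic loess, 7 without vehicle day 4 pool 12, and 6 without TPhP day 4 pool 12. The fits with block and loess, and without vehicle, TPhP or MEHP day 4 pool 12 or Rosi day 4 pool 15, were chosen after seeing the data. With the block the other counts were 20 against vehicle, 12 over time and 23 between chemicals; beside the added calls given in the results it changed no other call. Without pools 12, 15, 19 and 20, 3, 13, 23 and 25 of the 50 calls were lost. Leaving out a pool also cuts the arrays to 3 a group, and the leave-out fits did not have the pool as a block. The mean of probe sets left the members' values as they were. Without the filter 6 calls were lost. With the stricter one (6.34) the other 46 calls held, and Igfbp2, with 4 calls, could not be fitted because it left the genes tested.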
